A study of Homo sapiens with 6 samples.

Results

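The miR-29 family was followed in the human cell line RMUG-S-ip1, derived from mucinous ovarian cancer, with the NanoString nCounter miRNA assay, which counts colour-coded reporters on single captured molecules without amplification. The 3 members, miR-29a-3p, miR-29b-3p and miR-29c-3p, were taken by name from the 177 named miRNAs among 800 miRNA rows, and all 3 passed the filter on low values. Total RNA, 100 ng per sample, came from 3 samples labelled siPRKRA, transfected with siRNA against PRKRA by RNAiMAX lipid reagent, and from 3 labelled control siRNA, transfected in the same way with a control siRNA. All 6 share the line, the reagent and a medium change 6 h after transfection. The PRKRA product, PACT, binds double-stranded RNA and is a partner of Dicer. Neither its mRNA nor its protein was analysed here, and how far it was silenced in each sample is unknown. Separate cultures behind the replicates are not stated in the labels, and the p-values reflect the spread among the 6 samples, part of which may be technical.

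miRNAs of this family are cut from hairpin precursors by Drosha and Dicer, and the 3p arm is the one mainly loaded into Argonaute. Through the shared seed they repress mRNAs of extracellular matrix proteins (collagens, elastin, fibrillin), of the DNA methyltransferases DNMT3A and DNMT3B, and of growth and survival proteins such as CDK6 and MCL1. The family is often described as restraining tumour growth and fibrosis, and MYC is known to repress its transcription.

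The mature sequences are shown because the members differ in so few bases that the specificity of each probe bears on every value. Sequences are those of RefSeq on GRCh38.p14, which matched all 3 members, written from the 5′ end with the seed, bases 2 to 8, in capitals.
miR-29a-3p: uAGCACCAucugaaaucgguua
miR-29b-3p: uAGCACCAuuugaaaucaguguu
miR-29c-3p: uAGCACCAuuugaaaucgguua

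Of 2370 mature human miRNAs in the RefSeq table, these 3 were the ones with this seed. Counted from the 5′ end, miR-29a-3p and miR-29c-3p differed by the single substitution C10U. miR-29b-3p differed from miR-29c-3p by G18A, U21G and A22U and by an added last base, for a length of 23 bases against 22. Outside the family the nearest mature sequences were 8 edits away from miR-29a-3p (miR-199a-3p) and from miR-29b-3p (miR-195-5p), and 9 edits away from miR-29c-3p. The last bases of miR-29b-3p spell AGUGUU, an element known in human cells to direct this miRNA to the nucleus. This ending was present in 1 of the 3 members and in 2 of the 2370 mature miRNAs (0.0844%).

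The members come from 2 pairs of precursors. MIR29A (chr7:130876747-130876810) and MIR29B1 (chr7:130877459-130877539) lie on the minus strand, 648 bases apart, and the RefSeq gene table lists no other gene over them. MIR29C (chr1:207801852-207801939) and MIR29B2 (chr1:207802443-207802523), also on the minus strand and 503 bases apart, lie within the lncRNA gene MIR29B2CHG. The hairpins of miR-29b are shown, with the 3p arm in capitals, because they release the same mature molecule, so the miR-29b-3p value sums the output of both loci and cannot be split between them.
MIR29B1: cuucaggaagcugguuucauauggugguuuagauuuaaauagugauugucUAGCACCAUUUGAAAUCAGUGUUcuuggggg
MIR29B2: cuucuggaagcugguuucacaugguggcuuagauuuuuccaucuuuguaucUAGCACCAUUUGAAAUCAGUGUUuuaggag

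Values are background-subtracted counts that the authors multiplied by a factor for each library, and they are given here as deposited. The 800 miRNA rows held 143317 to 305890 counts above background in siPRKRA libraries and 52314 to 56862 in control siRNA libraries, and the factors were 0.231 to 1.09 in siPRKRA libraries and 1.32 to 1.53 in control siRNA libraries. siPRKRA replicate 2 stood apart, with Pearson correlations of 0.833 to 0.884 to the other libraries across the 106 tested miRNAs, and with miR-4454 and miR-720, the second an entry since recognised as a tRNA fragment, together at 72.2% of its miRNA signal, against 4.04% to 8.42% in the other libraries. The members' fold changes, shares, ratios, sums and correlations and the list medians are therefore also given without that library. Depth, factors and this library differ along with the groups, and their part in the members' values was not tested beyond the alternatives given. Of 7 epithelial marker miRNAs, 4 passed the filter, led by miR-200c-3p and miR-205-5p, and 0 were called by the test used below. Together the 7 summed to 7088 to 7849 in siPRKRA libraries and 8565 to 9762 in control siRNA libraries. The part of this difference in the members' values was not tested. miR-200c-3p weighed most in the sum, with means of 4529 in siPRKRA and 5927 in control siRNA libraries. Of the 4 tested, 3 had lower estimates in siPRKRA and 1, miR-200b-3p, a higher one (log2 fold change 0.37). Values of 2 did not overlap between the groups, which was so for 27.4% of all tested miRNAs. miR-200a-3p and miR-429 were at the floor in 4 libraries, all control siRNA libraries and siPRKRA replicate 2.

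Most of the family's signal was that of miR-29b-3p. It made up 93.0%, 88.3% and 93.2% of the summed value of the 3 members in siPRKRA replicates 1, 2 and 3, against 93.7%, 93.5% and 93.0% in control siRNA replicates 1, 2 and 3. miR-29a-3p held 4.85%, 9.38% and 4.44% in siPRKRA libraries, against 4.22%, 4.40% and 4.86% in control siRNA libraries. miR-29c-3p held 2.13%, 2.27% and 2.37% in siPRKRA libraries, against 2.05%, 2.13% and 2.09% in control siRNA libraries. Before rounding, its siPRKRA shares were all above its control siRNA shares, by 0.167 percentage points in the mean (exact permutation p = 0.1, the smallest possible), and by 0.159 without siPRKRA replicate 2. This order did not hold with the estimated 25 background counts added back, where miR-29c-3p held 2.25%, 3.24% and 2.63% in siPRKRA libraries and 2.76%, 2.92% and 2.81% in control siRNA libraries, a difference of -0.117 points (exact permutation p = 0.7). Without siPRKRA replicate 2 the shares differed by 0.152 points for miR-29a-3p and -0.311 points for miR-29b-3p. The make-up of the family was thus nearly the same in 5 libraries, and siPRKRA replicate 2 had more of miR-29a-3p and less of miR-29b-3p. Capture efficiencies of the probes are not known here, so these are shares of signal and not of molecules.

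miR-29b-3p, the brightest member, had values of 4209, 2242 and 3733 in siPRKRA libraries and 4524, 4154 and 3935 in control siRNA libraries. Of the siPRKRA libraries 1 lay within the control range and 2 lay below it, siPRKRA replicate 2 by far the lowest. These values rested on 18227, 2065 and 7955 counts above background in siPRKRA libraries and 3025, 2723 and 2992 in control siRNA libraries, so counting error was at most 2.2% and smaller than the spread between replicates. Among the 800 miRNA rows it ranked 3, 12 and 3 in siPRKRA libraries and 3, 4 and 3 in control siRNA libraries. The means were 3395 ± 1027 in siPRKRA and 4205 ± 298 in control siRNA cells (SD, n = 3 each).

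miR-29a-3p had values of 219, 238 and 178 in siPRKRA libraries and 203, 195 and 206 in control siRNA libraries. The control values lay close together, and the siPRKRA values lay on both sides of them, 2 above and 1 below. The counts behind them were 950, 219 and 379 in siPRKRA libraries and 136, 128 and 156 in control siRNA libraries. Means were 212 ± 30.8 in siPRKRA and 202 ± 5.39 in control siRNA cells (SD, n = 3 each), and the ranks ran from 49 to 54 in siPRKRA and from 54 to 57 in control siRNA libraries.

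miR-29c-3p, which differs from miR-29a-3p by a single base, had values of 96.6, 57.7 and 94.8 in siPRKRA libraries and 98.8, 94.8 and 88.6 in control siRNA libraries. Values of 2 siPRKRA libraries lay within the control range, and that of siPRKRA replicate 2 was below it. With 418, 53.2 and 202 counts in siPRKRA libraries and 66.1, 62.1 and 67.4 in control siRNA libraries, it was the most thinly counted member, with a counting error of up to 13.7%. The means were 83.03 ± 21.9 in siPRKRA and 94.1 ± 5.13 in control siRNA cells (SD, n = 3 each), and ranks ran from 71 to 87 in siPRKRA and from 69 to 71 in control siRNA libraries.

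**Figure D1:**
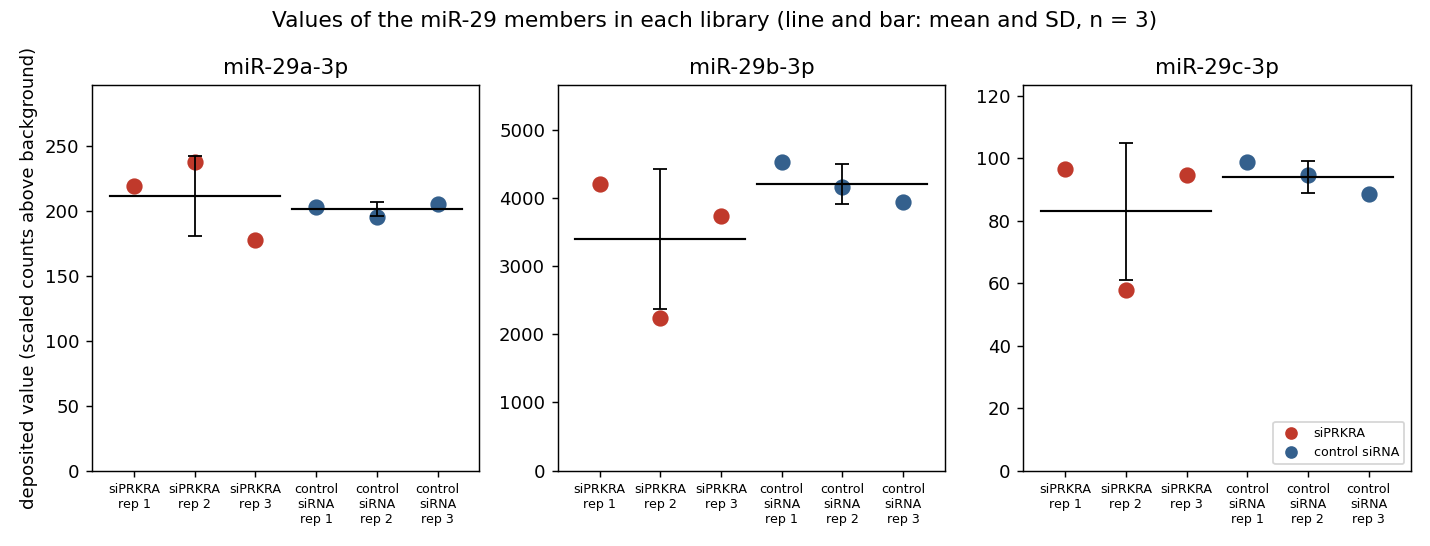
Deposited value (vertical axis, scaled counts above background, starting at 0) of each member in each library (horizontal axis), with siPRKRA in red and control siRNA in blue; black lines and bars are group means and SDs (n = 3). siPRKRA replicate 2 is the highest library for miR-29a-3p at 238 and the lowest for miR-29b-3p at 2242 and for miR-29c-3p at 57.7.

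In the order of mean values, the members' neighbours were close for 2 of the 3. miR-29a-3p, at 207 ± 20.5 (SD over 6 libraries), stood between miR-126-3p, an endothelial miRNA, at 207 ± 24.01 and miR-374b-5p at 198 ± 45.2. miR-126-3p was the higher of the pair in 4 of 6 libraries and miR-374b-5p in 3, so neither differed from miR-29a-3p beyond the spread. miR-29c-3p, at 88.5 ± 15.5, stood between miR-30a-5p at 88.9 ± 24.7 and miR-302d-3p, a pluripotency-associated miRNA, at 84.3 ± 45.3, and these too overlapped it. miR-29b-3p, at 3800 ± 809, had miR-720 above it only through siPRKRA replicate 2, and exceeded miR-125b-5p, at 3656 ± 144, in 5 of 6 libraries.

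The comparison of siPRKRA with control siRNA asked whether the family's levels differ when the Dicer partner PACT is targeted. None of the 3 members passed the test, which was limma on log2(value + 1) over 106 miRNAs that reached 30 in 3 or more of the 6 libraries. The log2 fold change of miR-29a-3p was 0.061 ± 0.14 (SE; 95% interval -0.28 to 0.40; limma adjusted p = 0.847). That of miR-29b-3p was -0.36 ± 0.25 (SE; 95% interval -0.96 to 0.25; limma adjusted p = 0.425). For miR-29c-3p it was -0.21 ± 0.24 (SE; 95% interval -0.80 to 0.37; limma adjusted p = 0.651). The intervals run from 0.823-fold to 1.32-fold for miR-29a-3p, from 0.513-fold to 1.19-fold for miR-29b-3p and from 0.576-fold to 1.29-fold for miR-29c-3p, and changes within them could not be told from none. Over all 106 tested miRNAs 0 (0.0%) had an adjusted p under 0.05, limma-voom on the recovered counts also called 0, and 17 (16.0%) had an unadjusted p under 0.05, none of them a member. Under the deposited scaling no member's values were free of overlap between the groups, where 27.4% of the tested miRNAs were. Bulk RNA was measured, so fewer cells with a miRNA and less of it per cell cannot be told apart.

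Relative to the median of all tested miRNAs, -0.06, the members' log2 fold changes were 0.12 for miR-29a-3p, -0.30 for miR-29b-3p and -0.15 for miR-29c-3p. Ordered from the lowest fold change among the 106 tested miRNAs, miR-29a-3p stood at place 70, miR-29b-3p at 22 and miR-29c-3p at 33. The authors' deposited table gives adjusted p-values of 0.863 for miR-29a-3p, 0.588 for miR-29b-3p and 0.703 for miR-29c-3p, and lists 2 of its 177 miRNAs (1.13%) under 0.05. The number that the authors' deposited table calls a fold change, 1.01 for miR-29a-3p, -1.03 for miR-29b-3p and -1.03 for miR-29c-3p, is a ratio of log2 levels, negative where the control level is higher, and cannot be read as a fold of expression.

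**Figure D2:**
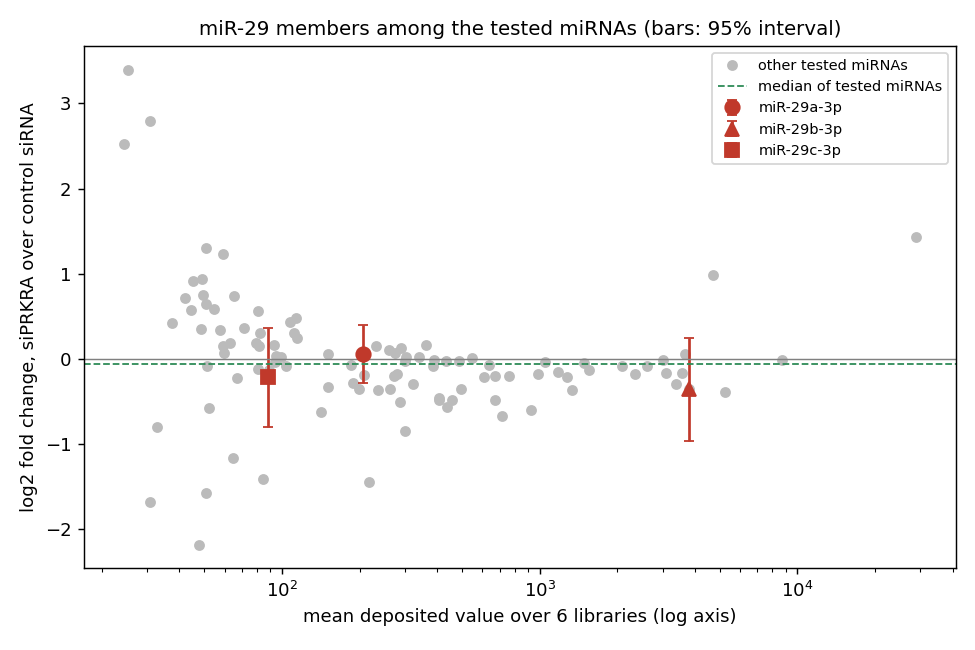
Log2 fold change of siPRKRA over control siRNA (vertical axis) against the mean deposited value over 6 libraries (horizontal, log axis) for the 106 tested miRNAs, the members in red with 95% intervals and the other miRNAs in grey. All 3 members lie among miRNAs of like mean value, and their intervals cross 0.

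With the values as deposited, the lower estimates of miR-29b-3p and miR-29c-3p rested on siPRKRA replicate 2. Without it the log2 fold changes were -0.028 for miR-29a-3p, -0.083 for miR-29b-3p and 0.026 for miR-29c-3p, at limma adjusted p values of 0.889, 0.570 and 0.928. For miR-29a-3p, leaving out siPRKRA replicate 3 moved the estimate more, to 0.18 (limma adjusted p = 0.507). On the log2(value + 1) scale, siPRKRA replicate 2 differed from the mean of the other siPRKRA libraries by 0.27 for miR-29a-3p, -0.82 for miR-29b-3p and -0.72 for miR-29c-3p. Among the 106 tested miRNAs these deviations ranked 77, 15 and 18 from the lowest, against an SD of 1.14 over all of them. The members thus lay on different sides of the other siPRKRA libraries, and none was among the extremes.

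The sign of a fold change also depended on what libraries were scaled to. The 5 graded control probes are control rows with values above 100 in every library. They were used as deposited, on the assumption that they do not carry the library factors, while the mRNA rows were divided by those factors. Scaled by the graded control probes, all 3 members had higher estimates in siPRKRA, with log2 fold changes of 1.72 for miR-29a-3p, 1.31 for miR-29b-3p and 1.44 for miR-29c-3p, in a fit where the median of all tested miRNAs was 1.61. There 22 miRNAs (20.8%) were called, none of them a member, and the members' adjusted p values were 0.0586, 0.138 and 0.0871. The values of miR-29a-3p did not overlap between the groups on this scale, at 872, 218 and 277 in siPRKRA libraries and 116, 95.9 and 130 in control siRNA libraries, nor did those of 72.6% of the tested miRNAs. Those of miR-29b-3p and miR-29c-3p overlapped. Without siPRKRA replicate 2, this scaling gave log2 fold changes of 2.11 for miR-29a-3p, 2.07 for miR-29b-3p and 2.15 for miR-29c-3p (limma adjusted p = 0.00177, 0.00308 and 0.00192 in that order). All 3 members were then called, along with 90.6% of the tested miRNAs, whose median was 2.08. Scaled by the 5 mRNA rows, the log2 fold changes were -0.50, -0.92 and -0.77 in the same order, with a median of -0.62. Without siPRKRA replicate 2 they were -0.17, -0.23 and -0.12, and none was called. Relative to the median of all tested miRNAs, in all 6 libraries, the members lay at 0.12, -0.29 and -0.17 with the graded control probes and at 0.12, -0.30 and -0.14 with the mRNA rows, close to their places under the deposited scaling. This closeness holds by construction, because a scaling multiplies all miRNAs of a library by the same factor. It is no separate result, and the small differences come from the added 1.

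Background subtraction mattered most for miR-29c-3p. When an estimated 25 counts of excess subtracted background were added back in every library, its values were 102, 84.9 and 106 in siPRKRA libraries and 136, 133 and 121 in control siRNA libraries. The groups then did not overlap, which was so for 32.1% of the tested miRNAs. Its log2 fold change became -0.41 ± 0.14 (SE; limma unadjusted p = 0.0228, adjusted p = 0.229), still short of the threshold, in a fit where 19.8% of the tested miRNAs had an unadjusted p under 0.05. miR-29a-3p then had a log2 fold change of -0.082, and miR-29b-3p, with its high counts, stayed at -0.36. Without siPRKRA replicate 2 the log2 fold changes with background added back were -0.20 for miR-29a-3p, -0.092 for miR-29b-3p and -0.31 for miR-29c-3p (limma adjusted p = 0.225, 0.486 and 0.138 in that order). The 25 counts were estimated from the other tested miRNAs on the assumption that fold change does not depend on abundance. They were added before the library factors were applied, which were 0.231 to 1.09 in siPRKRA and 1.32 to 1.53 in control siRNA libraries. On the scale of the values, more was therefore added in every control siRNA library than in any siPRKRA library, which weighs most on a member with low values.

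**Figure D3:**
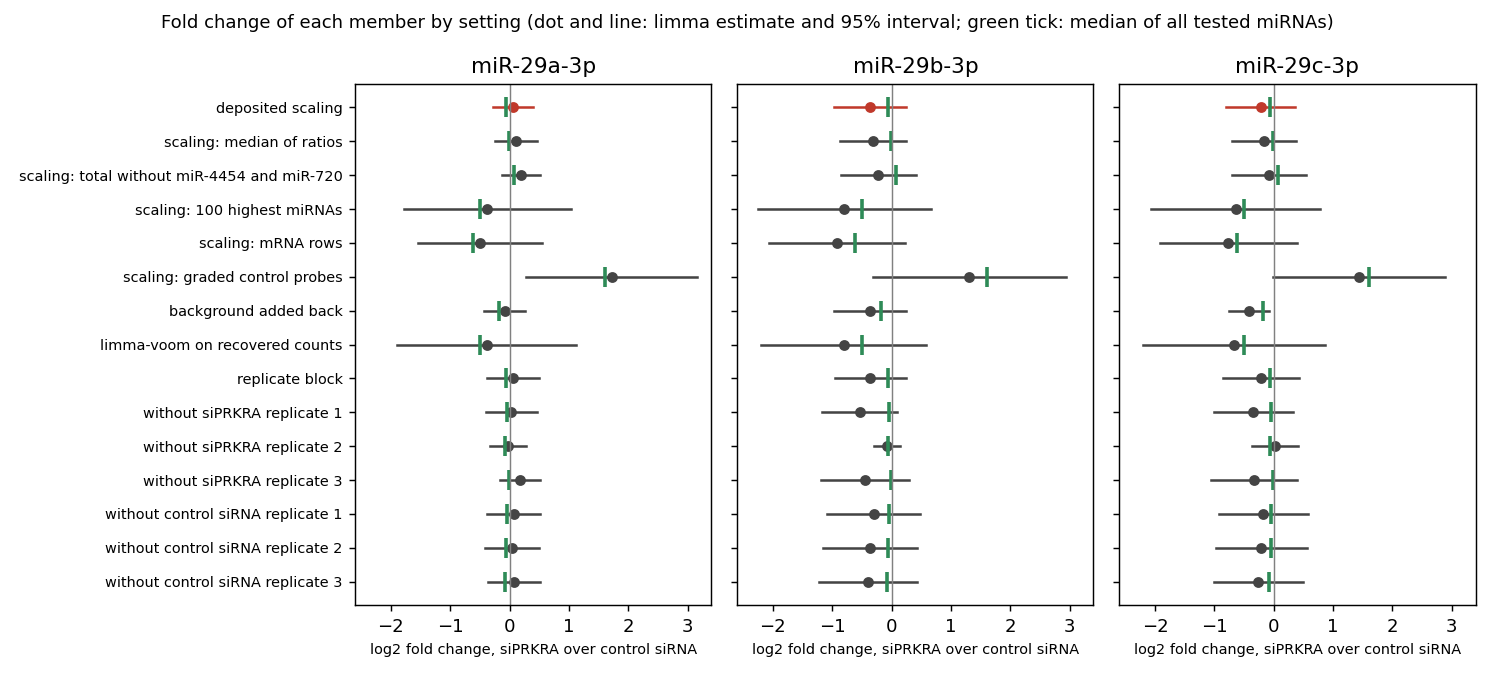
Log2 fold change of siPRKRA over control siRNA (horizontal axis) for each member under the deposited scaling (red) and 14 of the 22 alternatives (grey), with 95% limma intervals; green ticks are the median of all tested miRNAs in each setting. The estimates follow the green ticks from one scaling to another, and lie closest to 0 for miR-29b-3p without siPRKRA replicate 2, at -0.083. Intervals of miR-29a-3p with the graded control probes and of miR-29c-3p with background added back lie off 0, though neither passed after adjustment in all 6 libraries.

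Ratios between members within a library do not depend on the library's factor. miR-29b-3p over miR-29a-3p was 19.2, 9.42 and 21.0 in siPRKRA libraries and 22.2, 21.3 and 19.1 in control siRNA libraries. The difference in mean log2 ratio was -0.42 (exact permutation p = 0.3, two-sided, 0.45 adjusted over the 3 pairs), and without siPRKRA replicate 2 it was -0.054. miR-29c-3p over miR-29a-3p was 0.440, 0.243 and 0.533 in siPRKRA libraries and 0.486, 0.485 and 0.431 in control siRNA libraries. Here the difference was -0.28 (exact permutation p = 0.7, adjusted 0.7), and 0.055 without siPRKRA replicate 2. With 3 against 3 libraries no p under 0.1 is possible.

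The ratio of miR-29c-3p to miR-29b-3p, unlike the others, was not apart in siPRKRA replicate 2. The miR-29c-3p value was 2.30%, 2.57% and 2.54% of the miR-29b-3p value in siPRKRA libraries and 2.18%, 2.28% and 2.25% in control siRNA libraries. Over all 6 libraries this ratio ranged 1.18-fold, against 2.36-fold for miR-29b-3p over miR-29a-3p and 2.20-fold for miR-29c-3p over miR-29a-3p. Without siPRKRA replicate 2 these ranges were alike, at 1.16-fold, 1.16-fold and 1.24-fold in that order. The siPRKRA libraries lay just above the control siRNA libraries, by 0.14 in mean log2 ratio (exact permutation p = 0.1, the smallest possible, 0.3 adjusted over the 3 pairs). Counting error alone gives an SD of 0.071 to 0.200 per siPRKRA library and 0.178 to 0.185 per control siRNA library, which is of the size of the difference. With background added back the difference was -0.055, and without siPRKRA replicate 2 it was 0.11. Because miR-29b-3p made up most of the family sum, the miR-29c-3p share given above is nearly the same quantity as this ratio. The higher share and the higher ratio are therefore not separate results. MIR29C and MIR29B2 share the host gene MIR29B2CHG, and these members share their first 17 bases. Whether part of the miR-29c-3p signal came from miR-29b-3p binding its probe was not tested.

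**Figure D4:**
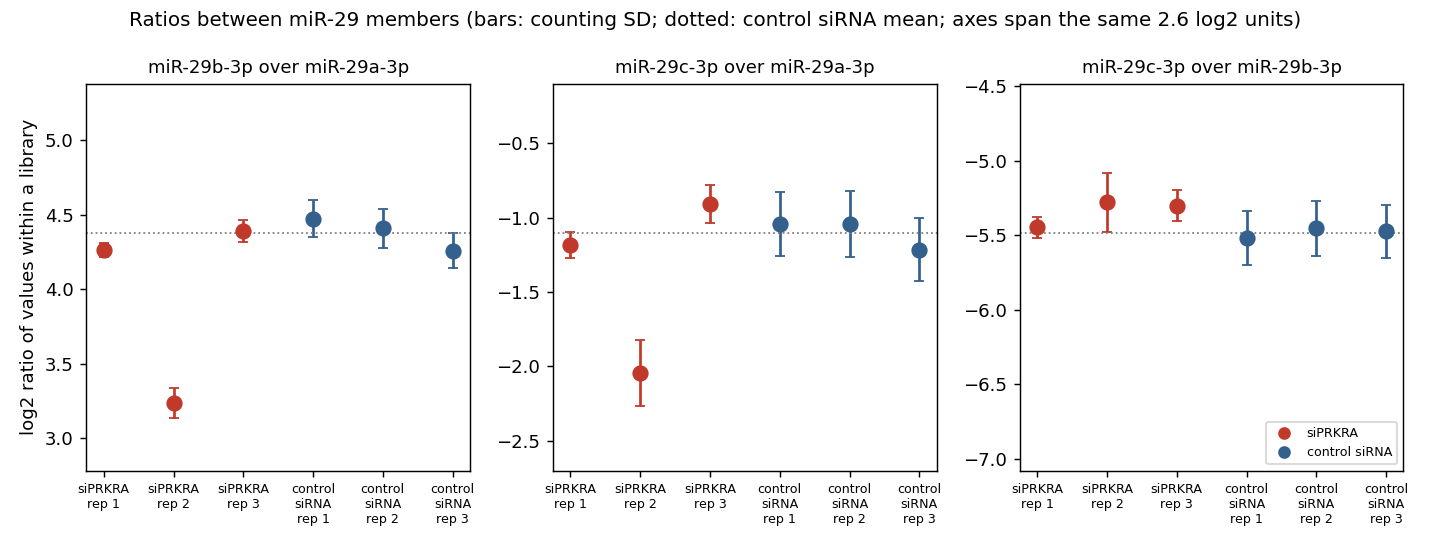
Log2 ratio of the values of a pair of members within each library (vertical axes, each spanning the same range), siPRKRA in red and control siRNA in blue, with bars for the SD from counting and a dotted line at the control siRNA mean. siPRKRA replicate 2 lies lowest for both ratios over miR-29a-3p, at 3.24 and -2.04, and not for miR-29c-3p over miR-29b-3p.

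The family sum was 4525, 2537 and 4006 in siPRKRA libraries and 4827, 4444 and 4230 in control siRNA libraries. The groups overlapped, and the mean log2 sum differed by -0.33 (exact permutation p = 0.3), or by -0.078 without siPRKRA replicate 2; scaled by the graded control probes it differed by 1.34. As a share of all miRNA signal the family held 6.36%, 1.02% and 5.93% in siPRKRA libraries and 6.00%, 5.57% and 5.66% in control siRNA libraries. With miR-4454 and miR-720 left out of the total these shares were 6.63%, 3.66% and 6.27% in siPRKRA libraries and 6.29%, 6.08% and 6.03% in control siRNA libraries. The difference in share was -1.30 percentage points (exact permutation p = 0.9), and 0.40 without siPRKRA replicate 2, so in the remaining libraries the family's share differed little.

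The profiles of the members over the 6 libraries, compared by Pearson correlation of log2(value + 1) as a description, set miR-29a-3p apart from the others. miR-29b-3p and miR-29c-3p correlated at 0.98, and miR-29b-3p was the third most similar of 105 tested miRNAs to miR-29c-3p. miR-29a-3p correlated at -0.58 with miR-29b-3p and at -0.70 with miR-29c-3p. These values were set by siPRKRA replicate 2: without it the correlations were 0.63 between miR-29b-3p and miR-29c-3p, 0.61 between miR-29a-3p and miR-29b-3p, and 0.05 between miR-29a-3p and miR-29c-3p. All points share the libraries and their factors.

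The miRNAs most like miR-29a-3p were let-7a-5p (0.86), miR-98 (0.85) and let-7f-5p (0.84), which share the let-7 seed and lie at loci apart from those of miR-29. For miR-29b-3p they were miR-126-3p (0.99), miR-19b-3p (0.98) and miR-100-5p (0.98), and for miR-29c-3p miR-19a-3p (0.99), miR-15a-5p (0.99) and miR-29b-3p. miR-98, a let-7 family member, had values of 260, 290 and 189 in siPRKRA libraries and 224, 237 and 195 in control siRNA libraries, with siPRKRA replicate 2 the highest. miR-126-3p had 216, 161 and 205 in siPRKRA libraries and 229, 214 and 219 in control siRNA libraries, and miR-19b-3p of the miR-17-92 cluster had 725, 295 and 709 in siPRKRA libraries and 930, 880 and 757 in control siRNA libraries. miR-19a-3p had 197, 27.3 and 172 in siPRKRA libraries and 175, 150 and 132 in control siRNA libraries, the widest gap of siPRKRA replicate 2 among these neighbours. miR-15a-5p had 1407, 812 and 1392 in siPRKRA libraries and 1373, 1362 and 1331 in control siRNA libraries, with siPRKRA replicate 2 the lowest. Without that library the correlations were 0.68, 0.70 and 0.75 for the neighbours of miR-29a-3p, 0.86, 0.77 and 0.95 for those of miR-29b-3p, and 0.83, 0.73 and 0.63 for those of miR-29c-3p, in the order named.

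**Figure D5:**
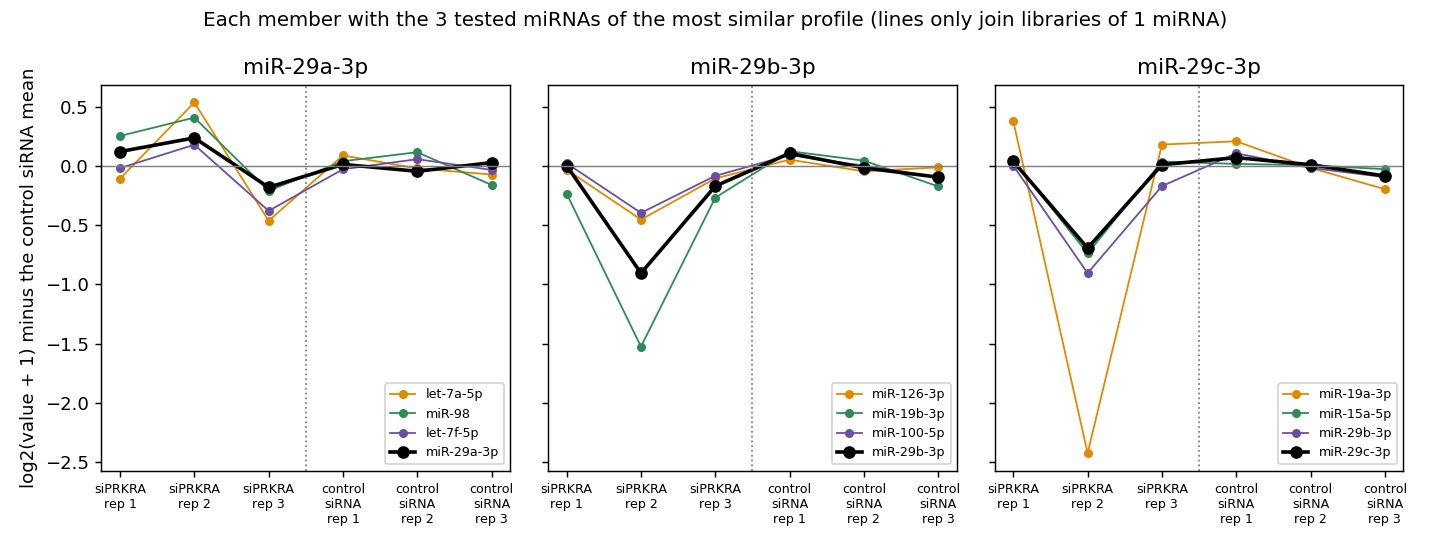
Log2(value + 1) of each member (black) and of the 3 tested miRNAs with the highest Pearson correlation to it (colours), minus the control siRNA mean of each miRNA (vertical axis), in the 6 libraries (horizontal axis). Values for miR-29a-3p and its neighbours are highest in siPRKRA replicate 2, and those of miR-29b-3p, miR-29c-3p and their neighbours are lowest there.

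Other miRNAs with known roles near those of miR-29 did not pass either. Of 17 miRNAs that MYC is known to repress, 15 were tested and 0 were called in either direction. Their estimates were 4 higher and 11 lower, where those of all 106 tested miRNAs were 44 higher and 62 lower. The median log2 fold change of the 15 was -0.09, against -0.06 over all tested miRNAs. Without siPRKRA replicate 2 the median was -0.14, against -0.07 over all tested miRNAs. Those with the highest means, let-7a-5p, miR-23a-3p, let-7g-5p and miR-16-5p, had log2 fold changes of -0.0099, -0.18, -0.088 and -0.37 in that order. The last, miR-16-5p, which targets cell cycle mRNAs, had 1334, 842 and 1355 in siPRKRA libraries and 1421, 1631 and 1409 in control siRNA libraries (limma adjusted p = 0.380). Its groups did not overlap, which was so for 3 of the 15 and for 27.4% of all tested miRNAs. Of 7 miRNAs known to target enzymes of DNA or histone methylation, 3 were tested and 0 called, all 3 with lower estimates, with a median of -0.083, or -0.17 without siPRKRA replicate 2. In all 6 libraries the log2 fold changes were -0.20 for miR-148a-3p, -0.083 for miR-26a-5p and -0.017 for miR-148b-3p. Of these, miR-26a-5p is also on the MYC list. miR-148a-3p, which like miR-29 targets DNA methyltransferases, had 746, 680 and 689 in siPRKRA libraries and 839, 781 and 808 in control siRNA libraries (limma adjusted p = 0.293).

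Of 8 miRNAs known from fibrosis and matrix control, 4 were tested and 0 called, 1 estimate being higher and 3 lower, around a median of -0.12 (log2), which was 0.019 without siPRKRA replicate 2. Of these 4, miR-200c-3p and miR-200b-3p are also on the epithelial list and miR-30c-5p on the MYC list. miR-21-5p, a profibrotic and oncogenic miRNA, had 3409, 2542 and 2829 in siPRKRA libraries and 3590, 3204 and 3020 in control siRNA libraries (limma adjusted p = 0.525). In siPRKRA libraries miR-21-5p thus shared with miR-29b-3p the lowest value in replicate 2. Markers of other cell types were few: the endothelial miR-126-3p was present at the values above, the blood marker miR-144-3p, 1 named of 5, had 10.0, 1.09 and 39.4 in siPRKRA libraries and 6.07, 151 and 79.4 in control siRNA libraries, and 0 of 6 stromal and muscle markers had a named row.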

How the data were processed

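The authors deposited a processed signal per probe and sample (822 rows) and the log2 of the same signal for 800 miRNA rows, which matched within 0.000234. The authors' software, background rule and scaling probes are unstated in the labels and file headers. The authors' deposited comparison holds p-values, log2 levels per group and a score called a fold change for 177 named miRNAs.

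The factor applied to each library was read from the spacing of its low values, and after division 100.0% of those values were whole to within 0.1. Members were found by name in the authors' deposited comparison, which pairs names with accessions, and read by accession. The 106 miRNAs that reached 30 in 3 or more samples entered 1 limma model on log2(value + 1), with the siRNA as its single factor and variances moderated along a trend (limma 3.58.1, R 4.3.3). Two-sided p-values were adjusted by Benjamini-Hochberg over the 106, and 0.05 was the threshold. The added 1 makes fold changes of low values too small. Leaving out a library kept the same 106 miRNAs. Ratios and sums were compared by exact permutation tests over samples. The fit and the recovery of factors were tested on simulated data. Counting errors take the counts above background alone and are lower bounds.

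Members, lists and tests were chosen with earlier results of these data known. miRNAs named are the members, the 3 tested miRNAs most correlated with each, its neighbours in mean value, miR-4454 and miR-720, and up to 4 tested members of a list with the highest means. The rows of the opposite arms carry no name in the files and were not analysed here. Other tools were scipy 1.17.1, pandas 2.3.3, numpy 2.4.6, matplotlib 3.10.9 and Python 3.11.15.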

Additional observations from a re-analysis of the deposited data

How the results depend on the processing

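No member passed the threshold under any of 19 alternatives. Of 3 more, chosen after seeing the data and leaving out siPRKRA replicate 2, scaling by the graded control probes called all 3 members (log2 fold changes of 2.11 for miR-29a-3p, 2.07 for miR-29b-3p and 2.15 for miR-29c-3p) among 96 miRNAs. Scaling by the mRNA rows called 11 miRNAs, with miR-29a-3p at -0.17, and background added back called 14, with miR-29a-3p at -0.20, and neither called a member. The cause was not tested. The log2 fold change of miR-29a-3p was -0.37 when scaled by the 100 highest miRNAs, -0.50 by the mRNA rows, -0.39 in limma-voom and -0.082 with background added back, and -0.028 to 0.18 with each library left out. That of miR-29b-3p was 1.31 when scaled by the graded control probes and -0.54 to -0.083 with each library left out, and that of miR-29c-3p was 1.44 and -0.34 to 0.026. The number of miRNAs called, 0, was 22 with the graded control probes, 1 with the mRNA rows, 1 without the trend, 635 with no filter, where most rows lie at the floor, and 0 to 4 with each library left out (4 without siPRKRA replicate 2, 2 without control siRNA replicate 3). Of the 635, 611 were lower in siPRKRA. The floor itself was 1.0 to 1.09 in siPRKRA and 1.32 to 1.53 in control siRNA libraries. A row at the floor in every library is thus lower in siPRKRA by construction. The log2 ratio difference of miR-29c-3p over miR-29a-3p ran from -0.51 to 0.055 with each library left out, and that of miR-29c-3p over miR-29b-3p was -0.055 with background added back. The log2 family sum difference was 1.34 with the graded control probes, and the difference in share ran from -2.27 to 0.40 percentage points with each library left out. With the replicate number as a block, 0 miRNAs were called, miR-29b-3p was at -0.36 (limma adjusted p = 0.452), and no call changed. The labels do not say that the numbers pair the samples. Deviations of same-numbered samples correlated at 0.17, -0.088 and -0.073, and 2 of 3 siPRKRA samples correlated better with a control siRNA sample of another number. With 3 samples per group, these correlations cannot decide whether the numbers pair samples. Sign-flip tests over 3 pairs cannot go below 0.25. Depth limits miR-29c-3p most, at 53.2 counts in its thinnest library.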
